A study of Homo sapiens with 6 samples.

Results

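The 60 genes described here carry cells through mitosis: CDK1 with its cyclins and regulators, the mitotic kinases, the spindle checkpoint and anaphase machinery, the chromosomal passenger complex, centromere and kinetochore genes, kinesins, spindle and cytokinesis factors, and chromosome proteins of dividing cells. They were chosen by symbol, and a gene entered the comparison when a probe annotated to it was detected (p under 0.01 against the array's negative controls) on 3 or more of the 6 arrays. That held for 58 of the 60 genes, out of 9841 genes tested in all, and 56 of the 58 were detected on all 6 arrays. CENPH, a kinetochore component, and MYBL2, a transcription factor of late cell cycle genes, were not tested: the CENPH probes were detected on 1 and 2 arrays, and the MYBL2 probe on 1.

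In a dividing cell, CDK1 bound to a cyclin starts mitosis, Polo and Aurora kinases build the spindle, and the kinetochore ties each chromosome to microtubules that kinesins move and organise. The checkpoint holds back the anaphase promoting complex until every chromosome is attached, after which CDC20 activates that complex, securin is destroyed and separase parts the sister chromatids. Most of these genes are transcribed together late in the cell cycle, so in bulk RNA from a culture their levels follow how many cells are dividing. Fewer cells in mitosis and less of these RNAs per cell cannot be told apart in bulk RNA.

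The cells were PC3, an established human prostate cancer line, carrying PGC1A, a transcriptional coactivator known for mitochondrial and oxidative metabolism, under doxycycline induction. The control group had no doxycycline (3 samples, titled M_DOX) and the treated group had doxycycline for 2 passages (3 samples, titled P_DOX). All 6 samples carry the PGC1A construct, and cells given doxycycline without it were not analysed here, so effects of the drug and of PGC1A cannot be told apart. Total RNA was hybridised to Illumina bead arrays, 1 per sample. Separate cultures are not named in the labels, so p-values rest on the spread among these 6 samples alone, and that spread may be technical. How the line was selected, and whether it is 1 clone, is not given in the sources used here.

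Every value is a background-corrected, quantile-normalised log2 signal, and changes are with minus without doxycycline, tested with limma and Benjamini-Hochberg adjustment over all 9841 genes. Each array had between 15029 and 16012 probes detected. The 1 probe named PPARGC1A, the gene of PGC1A, gave 4.94, 5.60 and 5.44 without doxycycline and 5.26, 5.73 and 5.09 with it, a change of 0.04 (SE 0.21, adjusted p = 0.951). That probe was detected on 2 of the 3 controls and on all 3 doxycycline arrays, and its values lay at or near the lowest detected signals of the arrays (5.07 to 5.21), so the change is one near background. Whether it reads the introduced copy is not given in the sources used here, so the labels could not be checked with it, and the groups are those the titles name. On the first principal component (35.3% of the variance) doxycycline replicate 2 stood apart, at 20.1 against -11.1 to 2.89 for the other 5. The members' counts and medians below are therefore also given without it. On the second (32.9%) the groups parted, with controls at 3.65, 12.5 and 9.80 and doxycycline arrays at -15.7, -2.96 and -7.35. There doxycycline replicate 1 lay furthest out. The detected probes of doxycycline replicate 2 (15437) lay within the range of the other arrays. Median intensities before normalisation were 61.6, 61.5 and 60.03 with doxycycline and 66.2, 68.04 and 65.6 without it. Those of all doxycycline arrays thus lay below those of all controls. The epithelial markers KRT8, KRT19, EPCAM and CDH1 were detected on all 6 arrays and CLDN4 on 4, while the KRT18 probe was detected on 1. The epithelial list's 6 genes with a probe, the untested KRT18 among them, summed to 5374 linear units on doxycycline replicate 2. That sum was 4444 to 5276 without doxycycline and 4062 at the lowest doxycycline array. Of the fibroblast list 3 of 6 genes were detected (COL1A1, COL1A2 and LUM) and of the leukocyte and endothelial lists only CD68 and PECAM1. On doxycycline replicate 2 the genes with a probe in these lists (5, 1 and 1) summed to 2628, 150 and 58.3. The fibroblast sum thus also holds the untested COL3A1 and DCN. The controls ran from 2333 to 2617, 128 to 170 and 39.8 to 59.7, and all doxycycline arrays from 2232 to 2751, 113 to 150 and 29.5 to 58.3. The fibroblast sum rests mostly on COL1A2. LUM, a matrix proteoglycan, gave 8.71, 8.4999 and 8.55 without doxycycline and 8.87, 8.85 and 9.04 with it. It was higher on all 3 doxycycline arrays, as were 10.2% of all genes, with a change of 0.33 (SE 0.10, adjusted p = 0.19). COL1A1 and COL1A2 went the other way, with overlapping groups and changes of -0.18 (SE 0.16, adjusted p = 0.652) and -0.03 (SE 0.12, adjusted p = 0.927). For the erythroid list no gene was named by a probe, and it was not analysed here. The part of these markers in the results was not tested.

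Promoters are shown first because co-transcribed mitotic genes are known for a shared arrangement. In it, a CHR element (cell cycle genes homology region, bound by the MuvB core of the DREAM complex) lies near the start site, with CCAAT boxes, bound by NF-Y, upstream of it. RefSeq (GRCh38.p14) promoters of 300 bases, from 250 before the start site to 50 after it, were given for 50 of the 60 genes. A CHR was counted as TTTGAA or TTCGAA and a CCAAT box as CCAAT, each on both strands (TTCGAA reads the same on both), and a CHR and a CCAAT box may share an end base. A CHR stood in 35 of the 50 (70%), against 11.4% of the 8092 tested genes with a promoter. A CCAAT box stood in 37 (74%, against 37.7%), and both in 29 (58%, against 5.09%). The 5 printed below are 4 with both motifs and 1 with neither, chosen for their different values on doxycycline replicate 2: PLK1, CCNB2 and KIF4A hold both motifs and were lower on doxycycline replicate 2 than on control replicate 2, KIF2C holds neither and was lower there too, and BUB1 holds both and was not lower. Capitals mark CHR and CCAAT letters, and positions count from the start site.
PLK1: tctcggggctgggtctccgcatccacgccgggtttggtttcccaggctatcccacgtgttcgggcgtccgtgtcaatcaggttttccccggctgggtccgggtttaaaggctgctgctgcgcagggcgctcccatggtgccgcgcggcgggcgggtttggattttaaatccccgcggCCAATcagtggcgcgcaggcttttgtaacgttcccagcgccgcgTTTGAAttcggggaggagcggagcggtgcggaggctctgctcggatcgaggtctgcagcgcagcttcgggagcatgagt
CCNB2: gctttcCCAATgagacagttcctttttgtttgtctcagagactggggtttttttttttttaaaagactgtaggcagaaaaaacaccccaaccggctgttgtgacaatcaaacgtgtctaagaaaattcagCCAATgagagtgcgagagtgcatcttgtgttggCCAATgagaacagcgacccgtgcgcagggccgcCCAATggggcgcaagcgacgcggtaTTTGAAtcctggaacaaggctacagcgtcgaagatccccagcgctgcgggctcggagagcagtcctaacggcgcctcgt
KIF4A: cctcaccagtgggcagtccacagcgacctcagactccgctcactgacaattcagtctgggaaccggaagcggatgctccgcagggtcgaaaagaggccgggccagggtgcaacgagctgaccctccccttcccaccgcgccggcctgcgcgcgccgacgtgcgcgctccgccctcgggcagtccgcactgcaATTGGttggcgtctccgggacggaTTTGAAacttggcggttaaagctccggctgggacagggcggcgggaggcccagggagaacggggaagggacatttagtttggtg
KIF2C: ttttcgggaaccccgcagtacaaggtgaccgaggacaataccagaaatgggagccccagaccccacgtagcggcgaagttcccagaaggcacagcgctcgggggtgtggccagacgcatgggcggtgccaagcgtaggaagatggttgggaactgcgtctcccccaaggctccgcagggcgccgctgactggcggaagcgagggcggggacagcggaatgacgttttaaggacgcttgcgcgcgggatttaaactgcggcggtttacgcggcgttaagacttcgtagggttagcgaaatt
BUB1: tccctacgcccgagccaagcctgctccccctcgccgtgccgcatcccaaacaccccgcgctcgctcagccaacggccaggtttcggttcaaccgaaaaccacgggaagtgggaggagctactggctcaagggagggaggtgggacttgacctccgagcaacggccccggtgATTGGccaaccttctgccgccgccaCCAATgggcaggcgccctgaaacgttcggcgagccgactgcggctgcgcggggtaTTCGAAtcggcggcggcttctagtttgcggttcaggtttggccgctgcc
The PLK1 promoter lies at chr16:23678639-23678938 on the plus strand, with a CHR at -29 and a CCAAT box at -73. In CCNB2 (chr15:59104896-59105195, plus strand) the CHR is also at -29 and CCAAT boxes begin at -244, -120, -87 and -54. In KIF4A (chrX:70289854-70290153, plus strand) the CHR is at -34, and the box at -58 reads on the other strand. In BUB1 (chr2:110678014-110678313, minus strand) the CHR begins at 2, inside the transcript, and CCAAT boxes at -79 and -54. The KIF2C promoter (chr1:44739587-44739886, plus strand) holds neither set of letters in this window. A match is a description of the letters and not of binding.

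Over 3 against 3 arrays no mitosis gene passed the test in either direction. By limma 0 of 58 were called at an adjusted p under 0.05 higher, where 0.437% of all genes tested were, and 0 lower, where 0.102% were. PLK4 alone had an unadjusted p under 0.05, 1 of 58 (1.72%) against 14.7% of all genes tested, and its adjusted p of 0.328 was the lowest among them. With replicate number as a block, which raised the calls over all genes from 53 to 177 (1.35% higher, 0.447% lower), 0 of 58 were called. There 4 of 58 had an unadjusted p under 0.05, where 2276 of all 9841 genes did, and the members' lowest adjusted p was 0.170. The members' changes ran from -0.38 for PLK4 to 0.42 for NDC80 with a median of -0.12, against -0.03 over all genes, and 47 of 58 (81%) lay below 0, against 56.6% of all genes. In the fit without the block all 58 intervals (95%) lay within 2-fold in either direction, between -0.92 and 0.97, and 32 of them within 1.5-fold. The 3 doxycycline arrays lay entirely below the 3 controls for 3 members, CDC25B, WEE1 and PLK4, where 11.3% of all genes did so, and entirely above for 0 members, where 10.2% did.

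**Figure D1:**
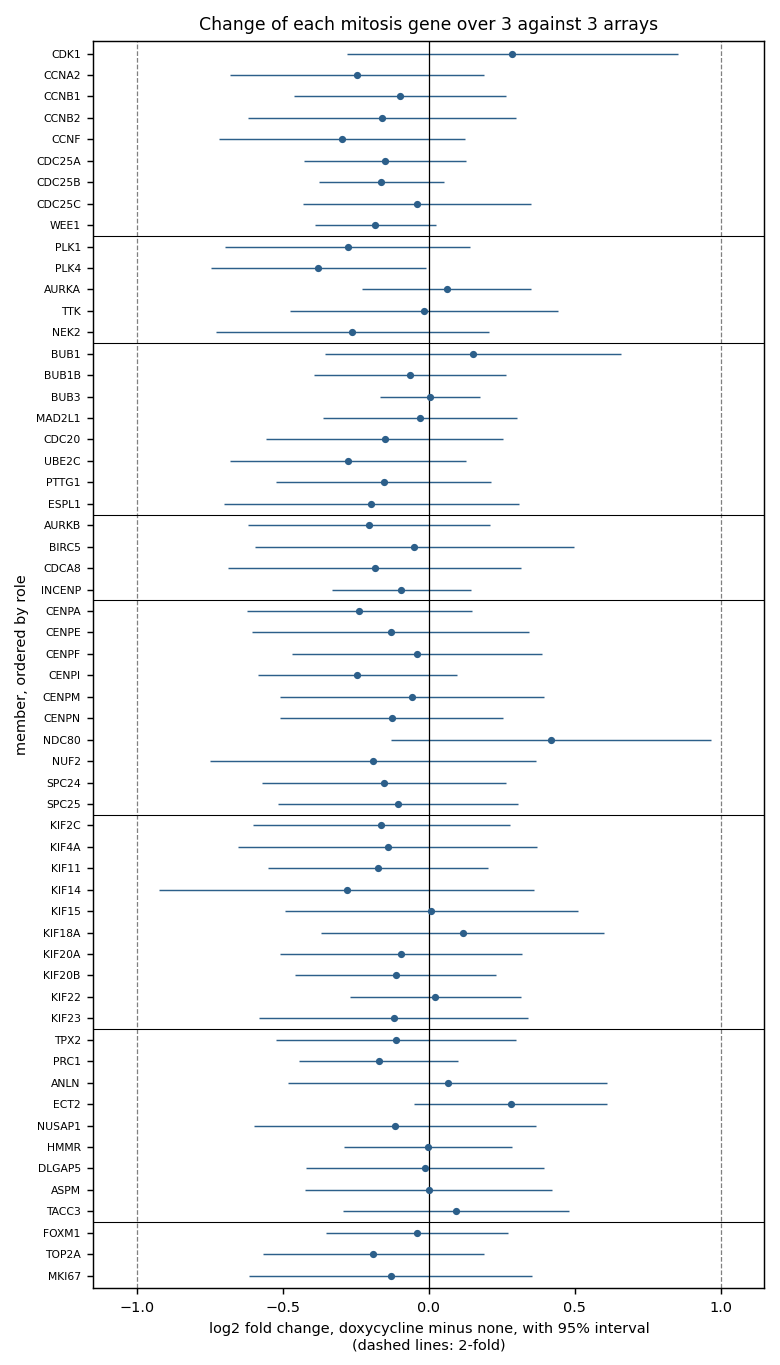
Log2 fold change with its 95% interval (x axis, with minus without doxycycline, 3 against 3 arrays) for each of the 58 mitosis genes (rows, parted by role). Every interval lies between the dashed 2-fold lines, and only PLK4's does not reach 0.

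The replicate numbers did not share 1 direction. In replicate number 1 the members' median difference was 0.07, in number 2 it was -0.39 and in number 3 it was -0.01, while all genes had medians of -0.02 in each. Below 0 lay 17 of 58 members in number 1 (29.3%, all genes 54.5%), 56 in number 2 (96.6%, all genes 53.7%) and 34 in number 3 (58.6%, all genes 54.5%). The members thus lay mostly above 0 in the first pair of arrays, nearly all below 0 in the second, and on both sides in the third. Each such pair is 1 array against 1 and has no replicate check. The same sign in all 3 numbers was seen downward in 11 of 58 members, where 27.1% of all genes had it, and upward in 0, where 20.0% had it.

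Past 1.5-fold in replicate number 1 were 2 members upward, CDK1 at 0.59 and NDC80 at 1.07 (1.70% of all genes), and 0 downward (1.19%). In replicate number 2 there were 0 upward (2.04%) and 11 downward (1.5%): NUF2, PLK4, CENPA, KIF14, CCNA2, CCNF, NEK2, MKI67, CENPI, UBE2C and KIF2C, from -0.80 to -0.61. In replicate number 3 there were 0 upward (1.38%) and 0 downward (0.986%). None of the 11 passed 1.5-fold in either of the other numbers.

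**Figure D2:**
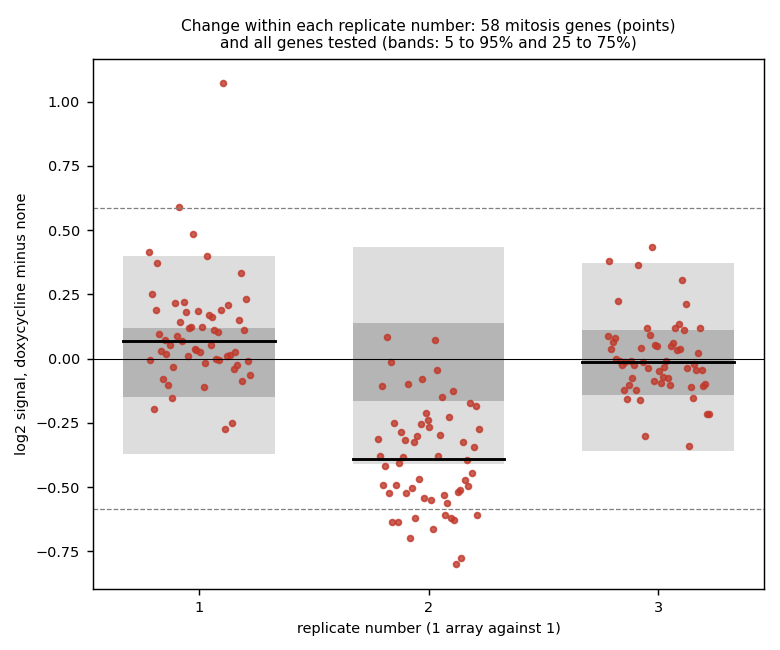
Log2 difference with minus without doxycycline (y axis) of the 58 mitosis genes (points, spread sideways for legibility) in replicate numbers 1, 2 and 3 (x axis), with bars at the members' medians of 0.07, -0.39 and -0.01. Grey bands hold 90% and 50% of all 9841 genes, and dashed lines mark 1.5-fold.

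Within number 2 it was the doxycycline array that stood apart. Doxycycline replicate 2 was the lowest of all 6 arrays for 54 of 58 members (93.1%), against 24.6% of all genes tested. The exceptions were BUB1 and KIF15, lowest in control replicate 2, BUB3, lowest in doxycycline replicate 3, and NDC80, lowest in control replicate 1. On doxycycline replicate 2, 57 of 58 members lay below their own mean over the 6 arrays, by a median of 0.46 log2 units (1.37-fold), where all genes had a median deviation of -0.003. On the other doxycycline arrays the members lay above their own mean, by a median of 0.19 in replicate 1 and 0.11 in replicate 3. That mean includes doxycycline replicate 2, whose low values raise the deviations of the other arrays, controls included. Among the controls the median deviations were 0.11, -0.06 and 0.09, and control replicate 2 was the lowest of the 3 for 43 members (74.1%, all genes 33.1%). Both arrays numbered 2 were thus low for the members within their group.

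With doxycycline replicate 2 included, the members spread more among the doxycycline arrays than among the controls. Their median SD was 0.12 over the 3 controls and 0.36 over the 3 doxycycline arrays, against 0.11 and 0.13 for all genes. The SD was larger with doxycycline in 55 of 58 members (94.8%), against 60.7% of all genes. These SDs hold the low values of doxycycline replicate 2 and are no separate observation from them. Without doxycycline replicate 2 the members' median change was 0.09 instead of -0.12 (all genes -0.02), 44 of 58 lay above 0 instead of 11, and 0 were called. In that fit 4 of 58 had an unadjusted p under 0.05, where 1488 of all 9841 genes did, and the members' lowest adjusted p was 0.0873. In those 5 arrays 12 members lay entirely above the controls, where 15.4% of all genes did, and 3 entirely below, where 18.9% did. The direction of the members' median therefore rested on that array. Of the 58 members 35 changed sign without it, 34 of them from below to above 0, and 22 others moved by over 1.5 times with the same sign. WEE1 alone did neither. By role, the medians without it were -0.01 for CDK1 with its cyclins and regulators, -0.03 for the kinases, 0.05 for the checkpoint and anaphase genes, 0.04 for the passenger complex, 0.12 for kinetochore genes, 0.12 for kinesins, 0.19 for spindle and cytokinesis factors and 0.11 for FOXM1, TOP2A and MKI67.

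**Figure D3:**
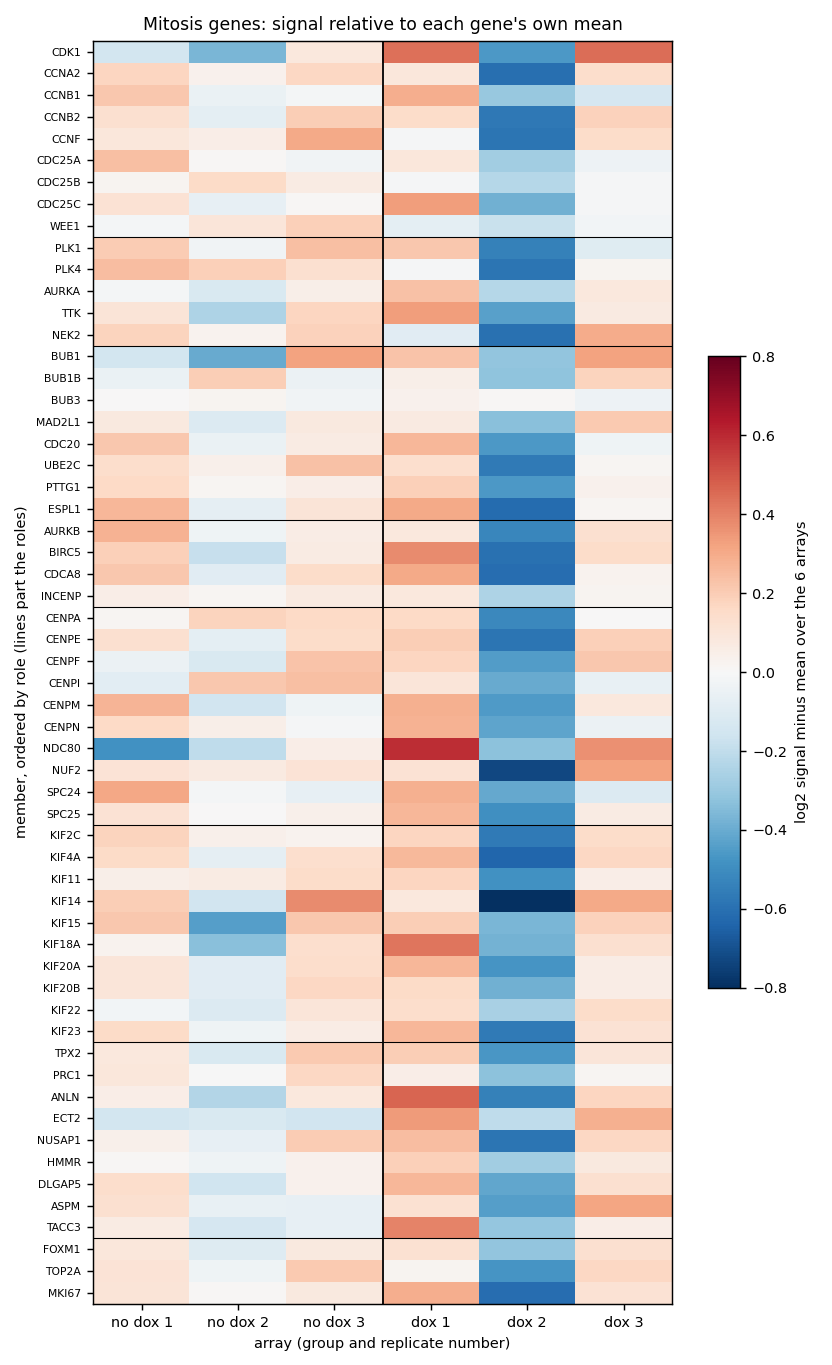
Log2 signal of each mitosis gene minus its own mean over the 6 arrays (colour, blue below and red above) for 58 genes in rows, parted by role, and the 6 arrays in columns. The column of doxycycline replicate 2 is blue for 57 of 58 genes, and the other doxycycline columns are mostly red.

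Among CDK1, the kinase whose activation starts mitosis, its cyclins and its regulators, 0 of 9 were called, 8 lay below 0 with a median of -0.16, and all 9 were lowest on doxycycline replicate 2. CDK1 gave 8.06, 7.84 and 8.29 without doxycycline and 8.65, 7.75 and 8.66 with it. Doxycycline replicates 1 and 3 lay above all controls and replicate 2 below all of them, so the groups overlapped, with a change of 0.29 (SE 0.25, adjusted p = 0.633, and 0.59 without doxycycline replicate 2) and an interval of -0.28 to 0.85. Another CDK1 probe had a change of -0.12, so its probes differed in sign. The mitotic cyclin CCNB1 gave 6.84, 6.57 and 6.61 without doxycycline and 6.91, 6.32 and 6.49 with it. Its groups overlapped, and the change was -0.10 (SE 0.16, adjusted p = 0.803). CCNA2, the cyclin of S phase and early mitosis, gave 10.91, 10.78 and 10.91 without doxycycline and 10.83, 10.14 and 10.88 with it. Here only replicate 2 of the doxycycline group lay outside the narrow band around the controls, and the change was -0.25 (SE 0.19, adjusted p = 0.583, and -0.0072 without doxycycline replicate 2). CCNF, which gives a ubiquitin ligase its substrate recognition, gave 9.71, 9.67 and 9.92 without doxycycline and 9.61, 9.03 and 9.76 with it. It had the most negative change of the role over all arrays, -0.30 (SE 0.18, adjusted p = 0.496, and -0.08 without doxycycline replicate 2), with doxycycline replicate 3 inside the control range.

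In this role the members whose groups did not overlap were opposing regulators of CDK1. CDC25B, a phosphatase that activates CDK1, gave 10.93, 11.06 and 10.97 without doxycycline and 10.89, 10.68 and 10.90 with it. All 3 doxycycline arrays lay below all 3 controls, though replicates 1 and 3 did so by little, and the change was -0.16 (SE 0.09, adjusted p = 0.468, and -0.09 without doxycycline replicate 2). WEE1, the kinase that holds CDK1 inactive, gave 8.57, 8.68 and 8.78 without doxycycline and 8.51, 8.41 and 8.56 with it. Its highest doxycycline array lay just under its lowest control, with a change of -0.18 (SE 0.09, adjusted p = 0.394) and an interval of -0.39 to 0.02. By replicate number WEE1 differed by -0.06, -0.27 and -0.21, and CDC25B by -0.03, -0.38 and -0.08. Over the 6 fits that left out 1 array the change lay between -0.20 and -0.09 for CDC25B and between -0.24 and -0.13 for WEE1. Groups that do not overlap keep their sign in every such fit, so the sign there is no separate check. The cyclin CCNB2 and the phosphatases CDC25A and CDC25C had changes of -0.16, -0.15 and -0.04, with adjusted p from 0.604 to 0.927.

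The mitotic kinases held the member with the most negative change of all. PLK4, the kinase that starts centriole duplication, gave 10.22, 10.17 and 10.11 without doxycycline and 9.97, 9.40 and 10.0004 with it. Its 3 doxycycline arrays lay below all 3 controls, by little in replicates 1 and 3 and by most in replicate 2. The change was -0.38 (SE 0.16, adjusted p = 0.328), with an interval of -0.75 to -0.01, and by replicate number it was -0.25, -0.78 and -0.11. Left out in turn, the arrays gave PLK4 changes between -0.48 and -0.18, the last without doxycycline replicate 2. With groups that do not overlap, the negative sign of these changes was fixed in advance. PLK1, which drives centrosome maturation and mitotic entry, gave 8.37, 8.14 and 8.41 without doxycycline and 8.38, 7.63 and 8.07 with it. Doxycycline replicate 1 lay among the controls, the other pair below them, and the change was -0.28 (SE 0.18, adjusted p = 0.523, and -0.08 without doxycycline replicate 2). NEK2, a kinase of centrosome separation, gave 7.38, 7.23 and 7.38 without doxycycline and 7.10, 6.60 and 7.49 with it. Its doxycycline arrays lay on both sides of the controls, the change was -0.26 (SE 0.20, adjusted p = 0.585, and -0.03 without doxycycline replicate 2), and its other probe had a change of 0.08. AURKA, the Aurora kinase of spindle poles, gave 11.09, 10.98 and 11.15 without doxycycline and 11.34, 10.88 and 11.18 with it. Its groups overlapped with a change of 0.06 (SE 0.13, adjusted p = 0.855), and TTK, the kinase that sets the spindle checkpoint in motion, had a change of -0.02. All 5 kinases were lowest on doxycycline replicate 2, with a median difference of -0.51 in that number against 0.01 and -0.10 in numbers 1 and 3.

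**Figure D4:**
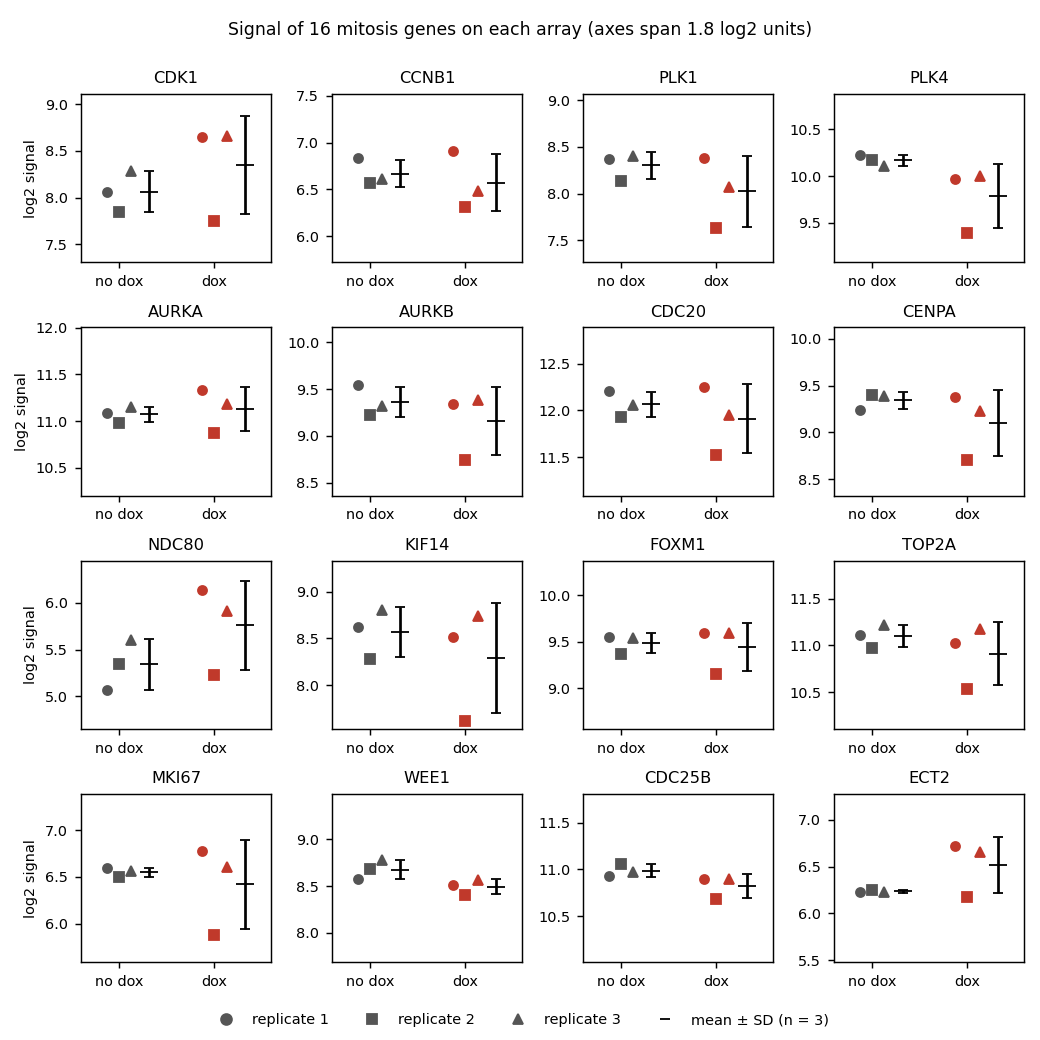
Log2 signal (y axes, all of the same span) of 16 mitosis genes on every array, grey without and red with doxycycline, with the marker shape giving the replicate number and black bars the mean ± SD of 3 arrays. The red square, doxycycline replicate 2, is the lowest point in every panel but NDC80, and the groups part without overlap for PLK4, WEE1 and CDC25B.

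In the spindle checkpoint, anaphase and separase genes 0 of 8 were called and 6 lay below 0, with a median of -0.11. CDC20, the activator of the anaphase promoting complex that the checkpoint restrains, gave 12.20, 11.93 and 12.06 without doxycycline and 12.25, 11.53 and 11.95 with it. Only doxycycline replicate 2 left the control range downward, and the change was -0.15 (SE 0.18, adjusted p = 0.728). UBE2C, the ubiquitin-conjugating enzyme of that complex, gave 11.37, 11.26 and 11.45 without doxycycline and 11.36, 10.66 and 11.24 with it. Doxycycline replicates 2 and 3 lay below all controls and replicate 1 among them, with a change of -0.28 (SE 0.17, adjusted p = 0.508, and -0.06 without doxycycline replicate 2). PTTG1, the securin that restrains separase, and ESPL1, separase itself, had changes of -0.16 (SE 0.16, adjusted p = 0.694) and -0.20 (SE 0.22, adjusted p = 0.717). Their differences in replicate number 2 were -0.47 and -0.54, and in number 1 0.03 and 0.04, so securin and its target had the same sign in each.

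The checkpoint proteins proper had changes on both sides of 0, each smaller than its SE, and were not tested against each other. BUB1, a checkpoint kinase of the kinetochore, gave 6.53, 6.27 and 6.999 without doxycycline and 6.90, 6.36 and 6.996 with it. It was lowest in control replicate 2 and differed by 0.08 in replicate number 2, with KIF15 1 of the 2 members above 0 there. The change of BUB1 was 0.15 (SE 0.22, adjusted p = 0.788). BUB1B, the checkpoint protein BubR1, gave 5.21, 5.47 and 5.22 without doxycycline and 5.31, 4.94 and 5.45 with it, and was detected on 3 control and 2 doxycycline arrays. Its change was -0.07. MAD2L1, the inhibitor of CDC20, had a change of -0.03. BUB3, the adaptor that brings both BUB kinases to kinetochores, gave 12.91, 12.93 and 12.88 without doxycycline and 12.94, 12.92 and 12.87 with it. Its 6 arrays lay close together, and the interval of its change was -0.17 to 0.18. BUB3's other probes, named after their values were seen, had changes of 0.38 and 0.47 with groups that did not overlap (adjusted p over all probes 0.197 and 0.116), so the probes of this gene disagreed.

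The chromosomal passenger complex of AURKB, INCENP, CDCA8 and BIRC5 corrects faulty attachments and guides cytokinesis. All 4 lay below 0 in the comparison of groups, all 4 were lowest on doxycycline replicate 2, and 0 were called. AURKB, its kinase, gave 9.54, 9.23 and 9.32 without doxycycline and 9.35, 8.74 and 9.39 with it. The groups overlapped, with a change of -0.21 (SE 0.18, adjusted p = 0.636). CDCA8, or borealin, gave 9.91, 9.60 and 9.84 without doxycycline and 9.99, 9.08 and 9.72 with it. It was highest in doxycycline replicate 1 and lowest in replicate 2, with a change of -0.19 (SE 0.22, adjusted p = 0.731). INCENP, the scaffold, gave 7.42, 7.38 and 7.43 without doxycycline and 7.45, 7.11 and 7.39 with it. Its controls lay close together (SD 0.03), doxycycline replicate 2 lay below them, and the change was -0.10 (SE 0.10, adjusted p = 0.71). BIRC5, or survivin, had a change of -0.05 and its other probe one of -0.17. In replicate number 2 AURKB differed by -0.49, CDCA8 by -0.52, INCENP by -0.27 and BIRC5 by -0.42.

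Of the 10 tested centromere and kinetochore genes 9 lay below 0, 0 were called and the median was -0.13. NDC80, of the complex that grips microtubules, gave 5.07, 5.35 and 5.61 without doxycycline and 6.14, 5.22 and 5.91 with it. It was the highest change of any member, 0.42 (SE 0.24, adjusted p = 0.468, and 0.69 without doxycycline replicate 2), with an interval of -0.13 to 0.97. Its probe was detected on 2 of the 3 controls and on all doxycycline arrays, so its control values lie near background, and the groups overlapped through doxycycline replicate 2. Of its partners in the same complex, NUF2 had a change of -0.19, SPC24 one of -0.15 and SPC25 one of -0.11, and these differences between subunits were not tested. NUF2 gave 6.10, 6.06 and 6.11 without doxycycline and 6.11, 5.26 and 6.32 with it. Its controls had an SD of 0.02 and its doxycycline arrays one of 0.56, and its -0.80 in replicate number 2 was the most negative of all members. CENPA, the histone variant that marks centromeres, gave 9.24, 9.40 and 9.39 without doxycycline and 9.38, 8.71 and 9.22 with it. Doxycycline replicate 2 lay below every other array, and the change was -0.24 (SE 0.17, adjusted p = 0.55, and -0.04 without doxycycline replicate 2). CENPI, of the inner kinetochore, gave 6.91, 7.22 and 7.24 without doxycycline and 7.10, 6.60 and 6.94 with it. Doxycycline replicate 2 was lowest, control replicate 1 lay close to doxycycline replicate 3, and the change was -0.25 (SE 0.15, adjusted p = 0.49, and -0.11 without doxycycline replicate 2). CENPE, the kinetochore's kinesin, CENPF, CENPM and CENPN had changes of -0.13, -0.04, -0.06 and -0.13.

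Kinesins, the motors that build the spindle and carry chromosomes, were called in 0 of 10 cases, with 7 below 0 and a median of -0.12. KIF14, a motor of cytokinesis, gave 8.63, 8.28 and 8.81 without doxycycline and 8.52, 7.62 and 8.74 with it. It had the widest doxycycline spread of the role and overlapped between groups. The change was -0.28 (SE 0.28, adjusted p = 0.683), with an interval of -0.92 to 0.36. KIF11, the motor that pushes spindle poles apart, gave 9.49, 9.51 and 9.59 without doxycycline and 9.62, 8.96 and 9.50 with it. Its change was -0.17 (SE 0.16, adjusted p = 0.668), while its other probe had a change of 0.29 and the mean of its probes one of 0.06. KIF2C, which takes microtubules apart at kinetochores, gave 8.73, 8.59 and 8.58 without doxycycline and 8.73, 7.99 and 8.70 with it. Doxycycline replicates 1 and 3 lay level with the controls and replicate 2 below, and the change was -0.16 (SE 0.19, adjusted p = 0.73). KIF4A, a chromosome-bound motor, gave 8.77, 8.54 and 8.75 without doxycycline and 8.87, 7.98 and 8.78 with it. It showed the same picture, with 0.10, -0.56 and 0.03 by replicate number. KIF15, which helps KIF11 keep the poles apart, gave 6.65, 5.996 and 6.65 without doxycycline and 6.63, 6.07 and 6.62 with it. Both arrays numbered 2 were low for KIF15 and to a like extent, so its difference in that number was 0.07. KIF18A, which damps chromosome movement, the cytokinesis motors KIF20A, KIF20B and KIF23, and the chromosome-bound KIF22 had changes of 0.12, -0.09, -0.11, -0.12 and 0.02.

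Spindle assembly and cytokinesis factors were nearest to 0, with a median of -0.002, 6 of 9 below 0 and 0 called. ECT2, the exchange factor that activates RhoA for the contractile ring, gave 6.23, 6.25 and 6.23 without doxycycline and 6.72, 6.17 and 6.66 with it. Its controls lay within 0.03 of each other, doxycycline replicates 1 and 3 lay above them and replicate 2 just below. ECT2 had a change of 0.28 (SE 0.14, adjusted p = 0.415, and 0.45 without doxycycline replicate 2), with an interval of -0.05 to 0.61. PRC1, which bundles the microtubules of the central spindle, gave 10.95, 10.85 and 11.03 without doxycycline and 10.91, 10.53 and 10.87 with it. The groups overlapped through doxycycline replicates 1 and 3, and the change was -0.17 (SE 0.12, adjusted p = 0.541, and -0.05 without doxycycline replicate 2). NUSAP1, a microtubule-binding spindle protein, gave 10.13, 10.03 and 10.29 without doxycycline and 10.34, 9.51 and 10.26 with it. Its change was -0.12 (SE 0.21, adjusted p = 0.833), and its other probe had a change of 0.11. The other 6, the microtubule and spindle factors TPX2, HMMR, DLGAP5, ASPM and TACC3 and the ring scaffold anillin (ANLN), had changes of -0.11 to 0.09. All 9 were lowest on doxycycline replicate 2, where they differed from control replicate 2 by -0.52 to -0.08.

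The last role joins FOXM1, a transcription factor of mitotic genes, with TOP2A, the topoisomerase that untangles sister chromatids, and MKI67, the proliferation marker Ki-67 that coats mitotic chromosomes. FOXM1 gave 9.55, 9.36 and 9.54 without doxycycline and 9.59, 9.15 and 9.60 with it. Its groups overlapped, its change was -0.04 (SE 0.13, adjusted p = 0.908), and its difference in replicate number 2 was -0.21. TOP2A gave 11.11, 10.97 and 11.21 without doxycycline and 11.03, 10.53 and 11.17 with it. Doxycycline replicates 1 and 3 lay among the controls, and the change was -0.19 (SE 0.16, adjusted p = 0.632, and -0.0018 without doxycycline replicate 2). MKI67 gave 6.59, 6.50 and 6.57 without doxycycline and 6.78, 5.88 and 6.60 with it. It was above the controls in doxycycline replicates 1 and 3 and far below in replicate 2, with a change of -0.13 (SE 0.21, adjusted p = 0.807). MYBL2's probe, detected on 1 doxycycline array, gave 4.69, 4.78 and 4.64 without doxycycline and 4.78, 4.38 and 5.18 with it, which is a bound on 5 of the 6 arrays and gives no fold.

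Probes beside the brightest were also mostly below 0 in replicate number 2. Several tested probes stood for 18 members, and the 21 probes beside the brightest had medians of 0.13, -0.24 and 0.15 in replicate numbers 1, 2 and 3. Of these, 16 lay below 0 in number 2, against 56 of 58 of the brightest probes. Over the whole comparison 10 of the 21 lay below 0, 0 were called, and 8 of the 18 members had probes of differing sign. Whether such probes read different transcripts was not analysed here.

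In replicate number 2 the medians of the promoter classes lay close together, and the classes were not tested against each other. The 29 tested members with both a CHR and a CCAAT box had a median difference of -0.44, the 6 with only a CHR -0.42, the 8 with only a CCAAT box -0.43 and the 6 with neither -0.44. In the same order the medians were 0.11, 0.05, -0.05 and 0.12 in number 1, -0.01, 0.15, -0.02 and 0.01 in number 3, and -0.12, -0.03, -0.16 and -0.15 for the change between groups. KIF2C, with neither, differed by -0.61, and PLK1, CCNB2 and KIF4A, printed above with both, by -0.51, -0.49 and -0.56. BUB1, also with both, differed by 0.08. These are medians within 1 pair of arrays, without a test.

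Related gene lists were read from the same fit, and none held a called gene with or without the block. Other genes of the late cell cycle, such as the CDK partner CKS1B, came closest to the members: 28 of 30 were tested, their medians were 0.06, -0.44 and -0.06 in replicate numbers 1, 2 and 3, and 92.9% were lowest on doxycycline replicate 2. CKS1B gave 12.37, 12.38 and 12.41 without doxycycline and 12.13, 11.80 and 12.19 with it. Its groups did not overlap, and the change was -0.35 (SE 0.11, adjusted p = 0.231), while BORA, a partner of Aurora A in activating PLK1, had a change of -0.32 (SE 0.21, adjusted p = 0.537). Other centromere and kinetochore genes (28 of 33 tested) had a median of -0.27 in number 2, with 89.3% lowest on that array. The G1/S and replication genes (41 of 45 tested) had -0.38 and 80.5%, and over the groups a median of -0.19, with 36 of 41 below 0. Cohesin and condensin genes (18 of 20) had -0.14 and 61.1%, anaphase promoting complex subunits (13 of 17) -0.12 and 53.8%, and genes of MuvB, DREAM and CDK inhibitors (20 of 24) -0.08 and 35%. The share of genes lowest on doxycycline replicate 2 was thus highest in the late cell cycle lists, and that of the MuvB list lay nearest to the 24.6% of all genes. These shares were not tested against each other. Without that array the lists' median changes were 0.07 for the late cell cycle, 0.03 for other centromere genes, -0.07 for G1/S and replication, -0.01 for cohesin and condensin, -0.04 for the anaphase promoting complex and -0.09 for the MuvB list.

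Single genes of these lists with the most extreme changes were as follows. GMNN, geminin, which blocks relicensing of origins, had a change of 0.60 (SE 0.19, adjusted p = 0.232), with its probe detected on 1 control and 3 doxycycline arrays, so its control level is mostly a bound. CHAF1B, a chromatin assembly factor, had a change of -0.41 (SE 0.21, adjusted p = 0.436). CDKN2B, a CDK inhibitor, had a change of 0.37 (SE 0.18, adjusted p = 0.394) and was highest on doxycycline replicate 2, where it differed from control replicate 2 by 0.61. LIN54, the MuvB subunit that binds CHR letters, had a change of -0.34 (SE 0.14, adjusted p = 0.326) and differed by -0.36, -0.37 and -0.29 by replicate number. MIS18A (which helps load CENPA), KNTC1 (spindle checkpoint), FBXO5 (an inhibitor of the anaphase promoting complex), ANAPC15 (a subunit of it), NCAPD2 (condensin) and CDCA5 (sororin, which protects cohesion) had changes of -0.28, -0.25, -0.24, 0.23, -0.23 and -0.22. None of these passed the test.

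**Figure D5:**
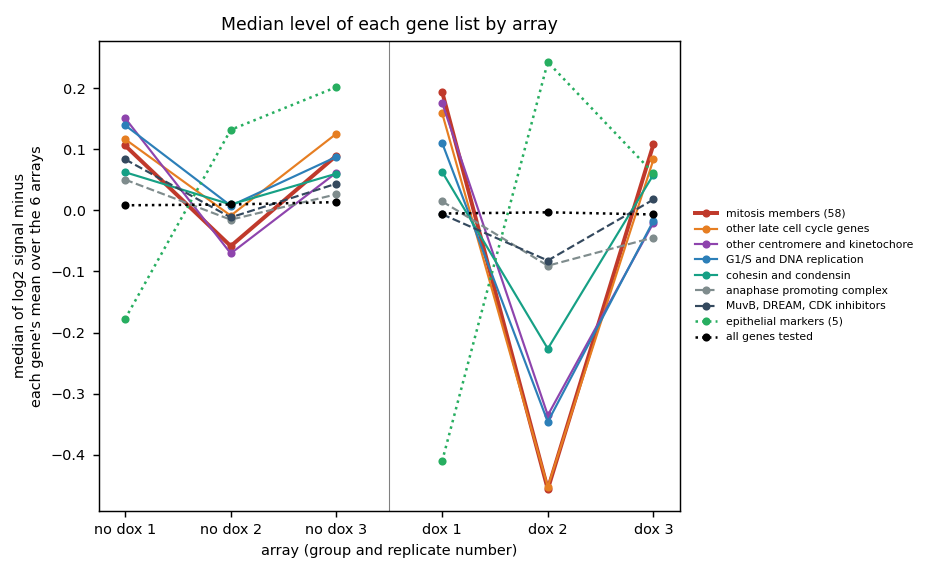
Median over each gene list of the log2 signal minus each gene's own mean (y axis) on the 6 arrays (x axis). The mitosis genes (thick red) sit at -0.46 on doxycycline replicate 2 and between -0.06 and 0.19 on the other arrays, the other late cell cycle genes lie close to them, and all genes tested (black dots) stay near 0.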

How the data were processed

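PC3 RNA from 3 samples without and 3 with doxycycline was measured on Illumina bead arrays, 1 per sample. The deposited table holds a linear intensity and a detection p-value for each of 47231 probes and array; per the file headers it is not normalized. The authors' processed log2 table was also deposited, and the submitters' processing notes name lumi. The scanner software is not given in the sources used here, and slides are not in the headers, so no slide block was run.

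Intensities were background-corrected with normexp from the detection p-values (offset 16), quantile-normalised and taken to log2 (limma 3.58.1 neqc, R 4.3.3). Of 15542 probes detected on at least 3 arrays, 12642 had 1 gene in the platform annotation, with symbols updated through RefSeq. The brightest probe stood for a gene, which left 9841 genes. The test was limma's (lmFit, then eBayes), two-sided, with Benjamini-Hochberg adjustment, and was first tested on simulated data. The array number, 6, limits the precision.

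The replicate numbers paired the arrays: deviations from the group means of same-numbered arrays correlated at 0.454, 0.523 and 0.299 over 9841 genes, all above 0.1, and all other pairings below 0. Deviations sum to 0 within each group, so the negative values follow in part from the positive ones and are no separate check. The SEs, intervals and adjusted p given gene by gene come from the fit without the replicate block. With the block many SEs were smaller, such as 0.128 instead of 0.278 for KIF14, though not all (0.148 instead of 0.142 for BUB1B). Named members are CDK1, CCNB1, PLK1, AURKA, AURKB, CDC20, FOXM1, MYBL2, TOP2A and MKI67, up to 3 per role with the largest absolute change, and all whose groups do not overlap. NUF2, BUB1, BUB1B, BUB3, KIF4A, KIF15 and the promoters printed were added after their values were seen. In each other list the genes with the largest absolute change were named. The members and lists were chosen with earlier results of these data known. Alternatives were the background correction, the deposited log2 values, the detection filter, the choice of probe, a variance trend, array weights, the replicate block, a stricter fold and leaving out each array.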

Additional observations from a re-analysis of the deposited data

How the results depend on the processing

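No mitosis gene was called under any of the alternatives run, whose lowest adjusted p among members ran from 0.0873 (without doxycycline replicate 2) to 0.557. The replicate block, for numbers that pair the arrays, raised the genes called over the whole table from 53 to 177 and changed no member's call or that of another list's gene. The genes called were 81 without background correction, 81 from the deposited table, 30 without a detection filter, 106 with every probe, 100 with a variance trend, 207 with array weights, and 1 to 9 when an array was left out. Members lying entirely below the controls numbered 3 to 10 when an array was left out, and those entirely above 0 to 12. Without doxycycline replicate 2, where the 12 were seen, 15.4% of all genes lay above and 18.9% below. Over all 6 arrays those shares were 10.2% and 11.3%. Shares of all genes are not given here for the other left-out fits, the mean of probes or every probe. Counts there, such as the 10 below without doxycycline replicate 1, thus cannot be read against all genes. Entirely above lay 1 member for the mean of probes and 2 probes with every probe, both of BUB3. Past 1.5-fold upward in replicate number 1, the count of 2 became 1 without background correction, 1 for genes detected on all 6 arrays, 1 for the mean of probes, 0 from the deposited table and 1 at 2-fold. Downward in replicate number 2, the 11 became 5 without background correction, 5 from the deposited table, 8 for the mean of probes and 0 at 2-fold. The members' median was -0.12, 0.002 with array weights (which gave doxycycline replicate 2 the lowest weight, 0.424), 0.09 without that array, -0.25 without doxycycline replicate 1 and -0.17 without doxycycline replicate 3 or control replicate 2. With every probe tested, a second probe of SKA2, of the outer kinetochore, was called at -0.86 (adjusted p = 0.0304), where the gene's brightest probe was not, making 1 call in the other lists. Of all 58 members 42 changed sign when some array was left out, 35 of them without doxycycline replicate 2. Among the 29 members named by the rule, 14 did so, 13 of them without doxycycline replicate 2 and AURKA without doxycycline replicate 1; none was called either way. Their left-out values ran from -0.041 to 0.19 for AURKA, -0.27 to 0.027 for CCNB1, -0.32 to 0.040 for CDC20, -0.29 to 0.034 for PTTG1, -0.40 to 0.062 for ESPL1, -0.32 to 0.0031 for AURKB, -0.38 to 0.074 for CDCA8, -0.16 to 0.0056 for INCENP, -0.29 to 0.078 for KIF2C, -0.30 to 0.027 for KIF11, -0.50 to 0.055 for KIF14, -0.27 to 0.15 for NUSAP1, -0.12 to 0.11 for FOXM1 and -0.31 to 0.14 for MKI67. Array weights turned NEK2 to 0.00092, KIF2C to 0.0022, KIF14 to 0.0048, NUSAP1 to 0.032, FOXM1 to 0.067 and MKI67 to 0.0049, and the mean of probes turned KIF11 to 0.059. The cause was not tested. Slide as a block was not run, since the headers give no slides. A left-out array leaves 2 against 3, and signal near background limits NDC80, BUB1B, MYBL2 and CENPH.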
